A study of Rattus norvegicus with 6 samples.

Results

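The let-7 family of microRNAs (miRNAs) was described in small RNA libraries from exosomes, the small vesicles that cells release, of rat mesenchymal stem cells. Its members were taken by name as let-7a, let-7b, let-7c, let-7d, let-7e, let-7f, let-7g and let-7i together with miR-98, each as the mature strand from the 5p arm of its hairpin. All 9 were listed among the 763 mature miRNAs of the deposited table, and each had at least 1 read. One group held 3 libraries from exosomes of cells pretreated with 200 µM nicorandil for 24 h, and the other held 3 libraries from exosomes of cells without pretreatment. Nicorandil, a drug used against angina, is both a nitric oxide donor and an opener of ATP-sensitive potassium channels. The cells of both groups are labelled as the line RBMSC, as mesenchymal stem cells and as wild type (WT). The exosomes came from culture supernatant by a reagent-based isolation. Whether separate cultures gave rise to the 3 libraries in a group is not stated in the labels, so p-values here measure only the spread between libraries, which may be technical.

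A miRNA guides silencing proteins to messenger RNAs, mainly by pairing through its seed, a short stretch next to its 5′ end. Members of the let-7 family share their seed and are therefore thought to act on overlapping targets, among them Ras genes, Hmga2, Myc and Lin28. The family is low in early embryonic cells and accumulates as cells differentiate, and the RNA-binding proteins LIN28A and LIN28B block the maturation of most let-7 precursors. Mesenchymal cells usually contain much let-7, and let-7 miRNAs are often found in vesicles released from cells.

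The mature sequences show how little separates the members. They are given 5′ to 3′ as in RefSeq on the build GRCr8, with the seed (bases 2 to 8) in capitals.
let-7a-5p: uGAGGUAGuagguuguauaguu
let-7b-5p: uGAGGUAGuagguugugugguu
let-7c-5p: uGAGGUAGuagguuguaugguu
let-7d-5p: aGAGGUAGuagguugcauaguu
let-7e-5p: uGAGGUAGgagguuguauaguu
let-7f-5p: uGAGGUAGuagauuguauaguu
let-7g-5p: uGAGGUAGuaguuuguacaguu
let-7i-5p: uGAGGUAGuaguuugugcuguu
miR-98-5p: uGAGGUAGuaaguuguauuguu

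All 9 were 22 bases long and carried the seed GAGGUAG, which no other of the 693 mature rat miRNAs in that RefSeq table had. Positions below are counted from 1 at the 5′ end, with the base of let-7a written first. let-7c differed from let-7a by A19G, let-7e by U9G and let-7f by G12A, 1 base each. let-7b carried A17G and A19G, and was 1 base from let-7c. let-7d carried U1A and U16C, let-7g G12U and U18C, and miR-98 G11A and A19U. let-7i was the most distant from let-7a of the 8, with G12U, A17G, U18C and A19U. A read with a single wrong base could therefore be counted for another member, and the number of mismatches that the alignment allowed is not stated in the labels. The split between let-7a, let-7c, let-7e and let-7f, and between let-7b and let-7c, is to that extent uncertain.

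Several members come from shared precursor clusters. In RefSeq, a let-7a hairpin, a let-7f hairpin and the let-7d hairpin lie together on chromosome 17, with the 5′ end of let-7f 363 bases and that of let-7d 2128 bases from that of let-7a. The other let-7f locus is on chromosome X, 611 bases from miR-98 and within the bounds of Huwe1, a ubiquitin ligase gene. let-7b lies on chromosome 7, 408 bases from a let-7c locus, and the other let-7c locus is on chromosome 11 near miR-99a. let-7e sits on chromosome 1 between miR-99b and miR-125a, within the bounds of Spaca6, and the other let-7a locus is on chromosome 8, 6912 bases from miR-100. let-7g (chromosome 8, within the bounds of Wdr82) and let-7i (chromosome 7) stand apart from the clusters. The loci of chromosomes 8, 11 and 17 named for let-7a, let-7c, let-7d and let-7f overlap annotated long non-coding RNAs. Since let-7a, let-7c and let-7f each have 2 loci with the same mature sequence, their reads cannot be assigned to a locus.

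Sequencing depth was low and unequal. The nicorandil libraries held 16628, 16324 and 8426 miRNA reads, against 2224, 2212 and 2338 reads in the untreated libraries. The deposited values are reads adjusted by the authors to 1 common library size, called normalized reads below. At these depths 1 read was worth 0.375 to 0.771 normalized reads in the nicorandil libraries and 1.93 to 2.17 in the untreated libraries. A count of 0 allows up to 3 reads, a share of up to 0.0180% to 0.0356% of a nicorandil library and 0.128% to 0.136% of an untreated library. Of a list of 11 mesenchymal miRNAs, all 11 had reads, and together they took 26.2% to 31.3% of the reads in nicorandil libraries and 27.3% to 28.0% in untreated libraries. Most of this sum was miR-143-3p, with 10227 reads in nicorandil and 1527 in untreated libraries. Of the 11, miR-145-5p and miR-31a-5p had 0 reads in all untreated libraries. In normalized reads 4 of 10 tested were called higher with nicorandil, against 14.0% of all tested miRNAs. With reads scaled to library totals, 3.31% of all tested miRNAs were called higher, a scale on which the calls in this list were not counted.

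The family was led by let-7c in all 6 libraries. It took 27.5%, 37.3% and 36.8% of the let-7 family reads in the nicorandil libraries, against 26.2%, 29.4% and 29.6% in the untreated libraries. The places below let-7c differed between the groups. By mean share of the family reads the nicorandil libraries had let-7a and let-7i next, then let-7b, let-7f and let-7g, then let-7d and let-7e, and miR-98 last. In that order the ranges of these shares did not overlap between let-7c and let-7a, between let-7i and let-7b, between let-7g and let-7d, or between let-7e and miR-98, while the other neighbours overlapped. In the untreated libraries let-7f came next after let-7c, followed by let-7i, let-7a, let-7b and let-7g, whose ranges overlapped from each to the next. let-7d, let-7e and miR-98 were again at the low end, with no overlap between let-7g and let-7d.

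**Figure D1:**
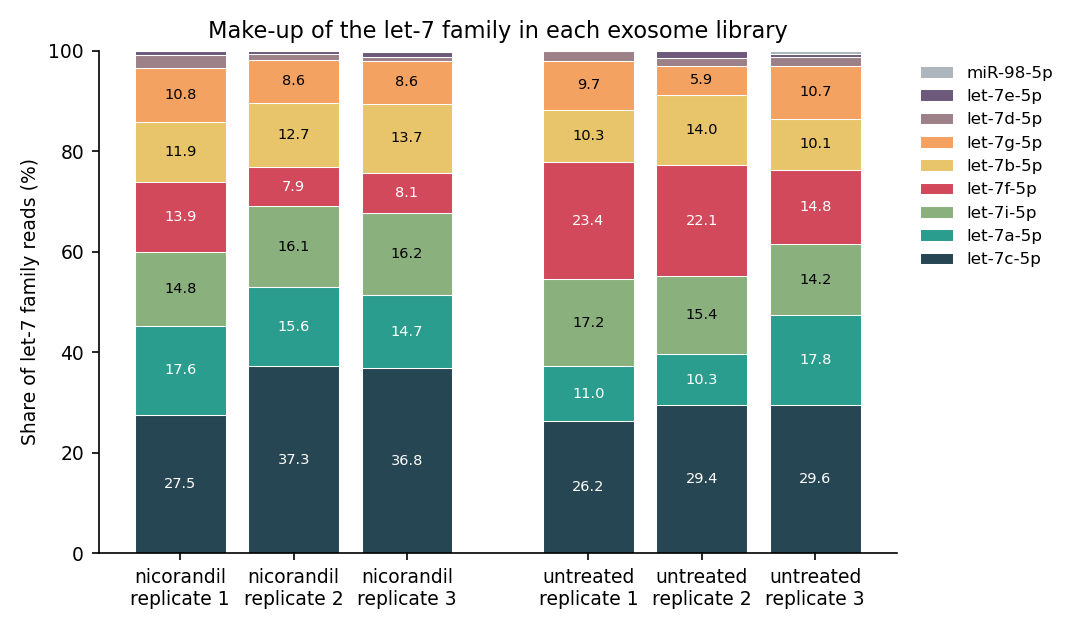
Share of each of the 9 members in the let-7 family reads of a library (%), as stacked segments with their values, 1 bar per library, with the 3 nicorandil libraries left of the 3 untreated libraries. The let-7c segment is the largest in each bar, and the let-7f segment is 7.90% to 13.9% in nicorandil libraries and 14.8% to 23.4% in untreated libraries.

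Of the 8 members tested, let-7f was the one whose level differed past the test. It had 44.5, 19.1 and 25.1 normalized reads in the nicorandil libraries, against 65.0, 64.4 and 53.7 in the untreated libraries. All 3 nicorandil libraries lay below all 3 untreated libraries, with nicorandil replicate 1 nearest to them. The means were 29.6 ± 13.3 in nicorandil exosomes and 61.0 ± 6.35 in untreated exosomes (SD, n = 3 each). let-7f fell by 1.10 on the log2(normalized reads + 1) scale (standard error 0.26, 95% interval -1.66 to -0.54; limma adjusted p = 0.00673). limma was fitted to the 121 miRNAs with a mean of at least 1 normalized read, and a Benjamini-Hochberg adjusted p under 0.05 was called a change. By that rule 7.44% of the tested miRNAs (9 of 121) were lower and 14.0% (17 of 121) were higher, and 1 of the 8 tested let-7 members was called, as lower. The authors' deposited table gives let-7f a log2 fold change of -1.04 with an unadjusted p-value of 0.00111.

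The call for let-7f depended on nicorandil replicates 2 and 3. Without nicorandil replicate 2 the log2 change was -0.84 (limma adjusted p = 0.0908), without nicorandil replicate 3 it was -1.03 (limma adjusted p = 0.0676), and without limma's trend of the variance over abundance it was -1.10 (adjusted p = 0.108).

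In reads, let-7f was counted 111, 53 and 33 times in the nicorandil libraries, against 34, 30 and 25 times in the untreated libraries. This made up 0.668%, 0.325% and 0.392% of all miRNA reads in nicorandil libraries, against 1.53%, 1.36% and 1.07% in untreated libraries. As a share of all reads the groups were again apart, with the nicorandil libraries lower.

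Its share of the family was also lower in each nicorandil library than in each untreated library. let-7f took 13.9% of the family reads in nicorandil replicate 1 (Wilson 95% interval 11.7% to 16.5%), 7.90% in replicate 2 (6.09% to 10.2%) and 8.09% in replicate 3 (5.82% to 11.1%). In the untreated libraries it took 23.4% (17.3% to 31.0%), 22.1% (15.9% to 29.7%) and 14.8% (10.2% to 20.9%). These intervals cover counting error only, since reads copied by PCR without molecular identifiers are not independent molecules. The groups did not overlap, but nicorandil replicate 1 and untreated replicate 3 were close, with overlapping intervals. The mean share was 9.96% ± 3.41 in nicorandil exosomes and 20.1% ± 4.65 in untreated exosomes (SD, n = 3 each), a difference of -10.1 percentage points. A two-sided exact permutation test gave an unadjusted p = 0.1, the lowest value it can return for 3 libraries per group. let-7f ranked 4, 6 and 6 among the members in the nicorandil libraries and 2, 2 and 3 in the untreated libraries.

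The ratio of a member to the rest of the family does not move with the scaling of the libraries. With 0.5 reads added to both terms, let-7f stood at -3.21 ± 0.51 against the other members in nicorandil exosomes and at -2.00 ± 0.44 in untreated exosomes (log2, SD, n = 3 each). The difference of -1.22 had an unadjusted two-sided exact permutation p of 0.1, as 1 of 9 members compared in this way. Against let-7a alone, which differs from it by G12A and shares its chromosome 17 cluster, let-7f had 0.787, 0.505 and 0.550 reads per let-7a read in nicorandil libraries. The untreated libraries had 2.13, 2.14 and 0.833 let-7f reads per let-7a read. All 3 nicorandil libraries were below all 3 untreated libraries, though nicorandil replicate 1 was only a little below untreated replicate 3.

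**Figure D2:**
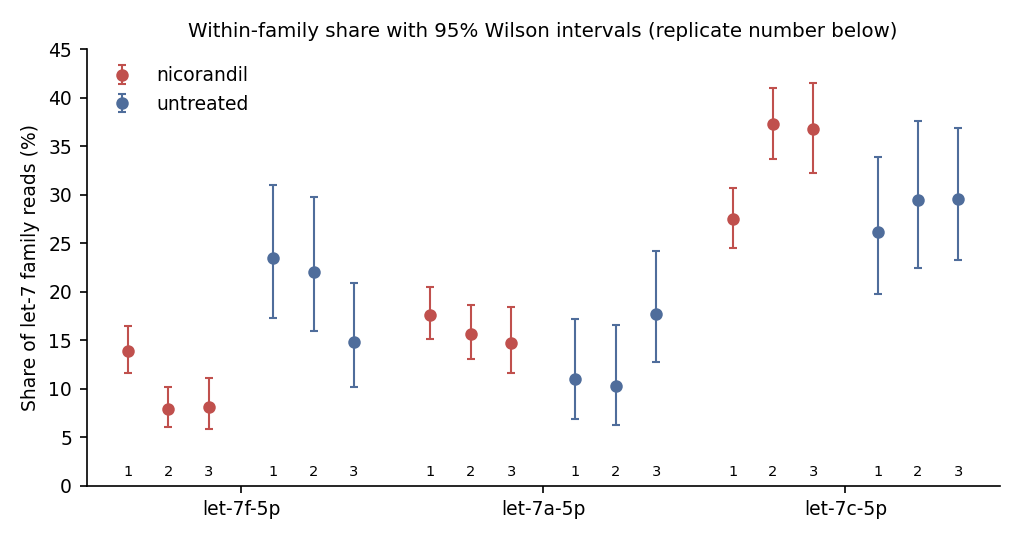
Share of let-7f, let-7a and let-7c in the let-7 family reads (%), 1 point per library with its 95% Wilson interval (counting error only) and the replicate number below, nicorandil left of untreated for each member. The let-7f points are apart, at 7.90% to 13.9% with nicorandil and 14.8% to 23.4% without, and those of let-7a and let-7c overlap between the groups.

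Position 12 divides the family into let-7f with A, let-7g and let-7i with U, and the other 6 members with G. The 6 members with G took 60.6%, 67.4% and 67.2% of the family reads in nicorandil libraries, against 49.7%, 56.6% and 60.4% in untreated libraries. The groups did not overlap, the closest libraries being nicorandil replicate 1 and untreated replicate 3. let-7g and let-7i together took 25.0% ± 0.453 in nicorandil exosomes and 24.4% ± 2.82 in untreated exosomes (SD, n = 3 each), and those ranges overlapped. The shares of 1 family sum to the whole, so a lower share of let-7f raises the others.

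In normalized reads the members other than let-7f overlapped between the groups. Among all 121 tested miRNAs the normalized reads of the groups did not overlap for 10.7% with nicorandil lower and for 17.4% with nicorandil higher, while among the 8 tested members this held for let-7f alone. A p above the threshold does not show that a level was equal, so the intervals of the differences are given with the values.

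let-7c, the most abundant member, had 80.9, 99.0 and 116 normalized reads in nicorandil libraries, against 75.0, 86.9 and 102 in untreated libraries. The ranges overlapped over most of their width. The log2 difference was 0.16 (95% interval -0.23 to 0.54; limma adjusted p = 0.703). Its share of the family reads was 33.9% ± 5.48 with nicorandil and 28.4% ± 1.90 without (SD, n = 3 each; two-sided exact permutation p = 0.3), with nicorandil replicate 1 inside the untreated range.

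let-7a, 1 base from let-7c, let-7e and let-7f, had 53.8, 40.7 and 46.2 normalized reads in nicorandil libraries, against 32.6, 32.5 and 58.6 in untreated libraries. Untreated replicate 3 was above every nicorandil library and the other two untreated libraries were below every one. The log2 difference was 0.23 (95% interval -0.28 to 0.74; limma adjusted p = 0.678).

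let-7i, whose gene stands apart from the clusters, had 43.9, 42.3 and 51.2 normalized reads in nicorandil libraries, against 48.2, 46.0 and 49.9 in untreated libraries. The untreated libraries lay inside the nicorandil range, and the SD of 4.73 with nicorandil and 1.93 without was the smallest among let-7a, let-7b, let-7c, let-7f, let-7g and let-7i in both groups. The log2 difference was -0.07 (95% interval -0.48 to 0.34; limma adjusted p = 0.865), and its share of the family was 15.7% ± 0.791 in nicorandil and 15.6% ± 1.53 in untreated exosomes (SD, n = 3 each).

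let-7b, which lies beside a let-7c locus, had 35.3, 33.0 and 43.5 normalized reads in nicorandil libraries, against 30.0, 40.0 and 35.5 in untreated libraries. The libraries of the groups were interleaved. The log2 difference was 0.08 (95% interval -0.39 to 0.55; limma adjusted p = 0.865).

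let-7g, the member inside Wdr82, had 33.4, 21.9 and 26.9 normalized reads in nicorandil libraries, against 27.1, 19.5 and 35.4 in untreated libraries. Both means were 27.4, with the untreated libraries more widely spread. The log2 difference was 0.02 (95% interval -0.55 to 0.60; limma adjusted p = 0.955).

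**Figure D3:**
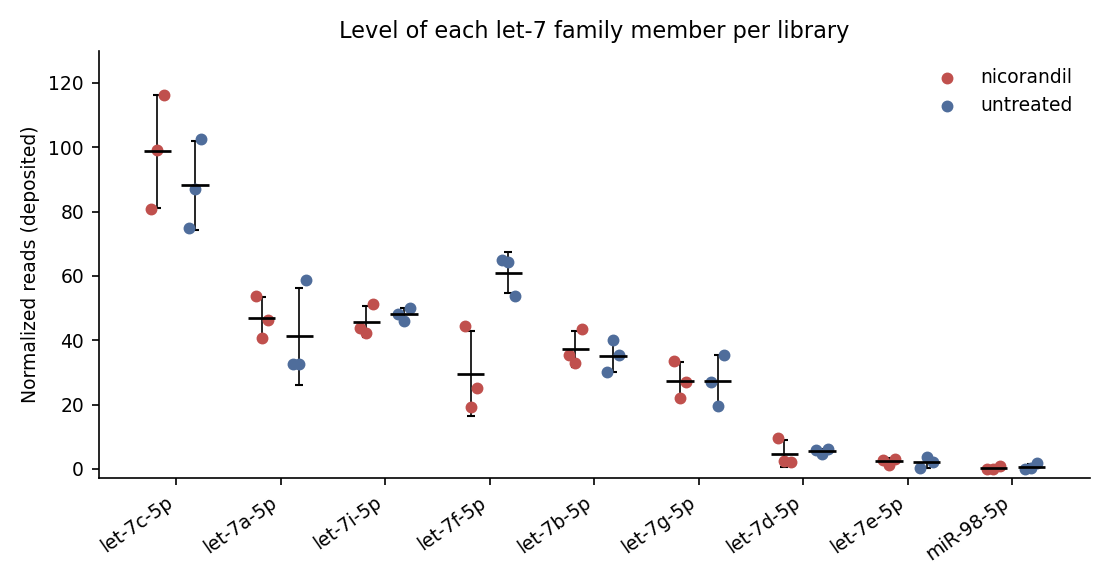
Normalized reads of each member as deposited, on a linear axis, 1 point per library with the group mean (wide bar) and SD (whiskers), nicorandil left of untreated. The let-7f points are apart, at 19.1 to 44.5 with nicorandil and 53.7 to 65.0 without, and the points of let-7a, let-7b, let-7c, let-7d, let-7e, let-7g and let-7i overlap.

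The rare members were close to the limit of detection. let-7d was counted 21, 8 and 3 times in nicorandil libraries, against 3, 2 and 3 times in untreated libraries. In normalized reads that was 9.46, 2.43 and 2.04 with nicorandil and 5.78, 4.74 and 6.13 without, so the nicorandil libraries lay on both sides of the untreated range. The log2 difference was -0.45, with a 95% interval from -1.66 to 0.76 that leaves both directions possible (limma adjusted p = 0.733).

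let-7e was counted 7, 4 and 4 times in nicorandil libraries, against 0, 2 and 1 times in untreated libraries. The 0 in untreated replicate 1 allows a share of up to 0.135% of that library, which is above the share in each nicorandil library, so a difference was not detectable at this depth. Its log2 difference of 0.28 had a 95% interval from -1.17 to 1.73 (limma adjusted p = 0.860). miR-98, a let-7 family member by its seed, had 1 read in nicorandil replicate 3, 1 read in untreated replicate 3 and 0 in the other 4 libraries. It was below the minimum for testing.

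**Figure D4:**
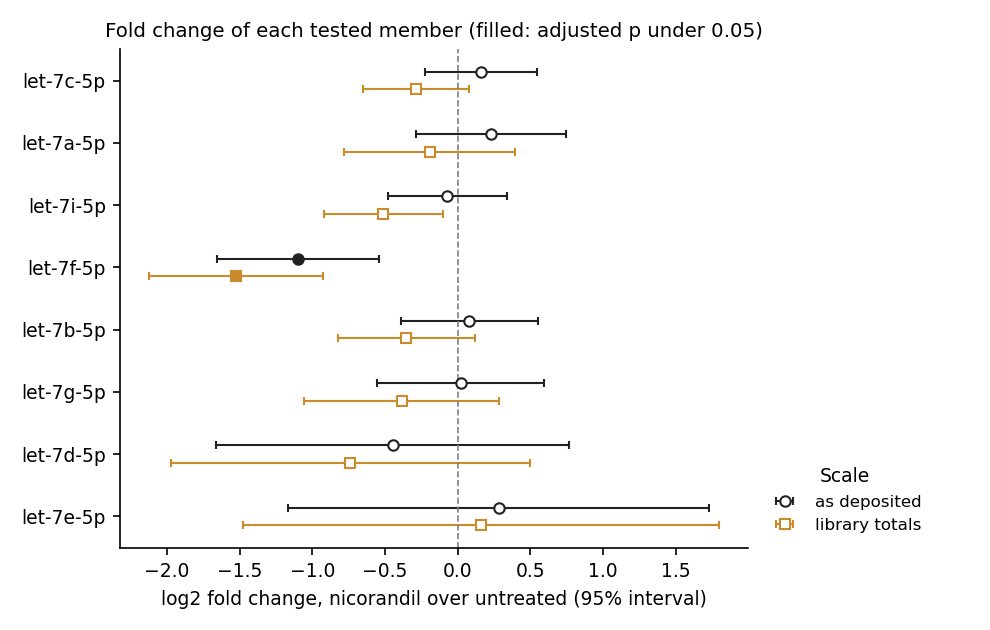
log2 difference of normalized reads + 1, nicorandil minus untreated, for the 8 tested members with 95% intervals, on the deposited scale (circles) and after scaling the reads to library totals (squares), with filled symbols where the limma adjusted p is under 0.05. The interval of let-7f lies below 0 on both scales, from -1.66 to -0.54 as deposited and from -2.13 to -0.93 by library totals.

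For let-7a, let-7b, let-7c and let-7g, the direction depended on how the libraries were scaled. The authors' scale multiplied each nicorandil library total, the divisor of its reads, by 0.840 to 0.875 and each untreated total by 1.12 to 1.27. Normalized reads were thereby raised in nicorandil and lowered in untreated libraries. They summed to 6230 to 6505 per nicorandil library and 4319 to 4856 per untreated library. Scaling to library totals moved the median log2 difference of all 121 tested miRNAs by -0.35, to -0.12 from 0.23, and that of the 8 tested members to -0.37 from 0.05. With library totals let-7a stood at -0.19, let-7b at -0.35, let-7c at -0.29 and let-7g at -0.39, signs opposite to those on the deposited scale, none past the threshold. let-7d, let-7e and let-7i kept their sign, at -0.74, 0.16 and -0.51 by library totals, the last with a 95% interval from -0.92 to -0.10 (limma adjusted p = 0.112). let-7f was lower on either scale, at -1.53 by library totals (limma adjusted p = 0.00433), where 9.09% of the tested miRNAs were lower and 3.31% higher.

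For the family as a whole, too, the scale mattered. Its members together took 4.81%, 4.11% and 4.84% of all miRNA reads in nicorandil libraries, against 6.52%, 6.15% and 7.23% in untreated libraries. The groups did not overlap, with means of 4.59% ± 0.412 in nicorandil and 6.63% ± 0.549 in untreated exosomes (SD, n = 3 each). With let-7f left out of the sum, the shares were 4.14%, 3.79% and 4.45% in nicorandil libraries, against 4.99%, 4.79% and 6.16% in untreated libraries, and the groups remained apart. In normalized reads the members summed to 293 ± 29.4 in nicorandil and 309 ± 32.3 in untreated exosomes (SD, n = 3 each), and the groups overlapped. A lower share of all reads and a higher level of other miRNAs cannot be told apart in these data, nor can fewer vesicles that carry let-7 and fewer let-7 molecules per vesicle.

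**Figure D5:**
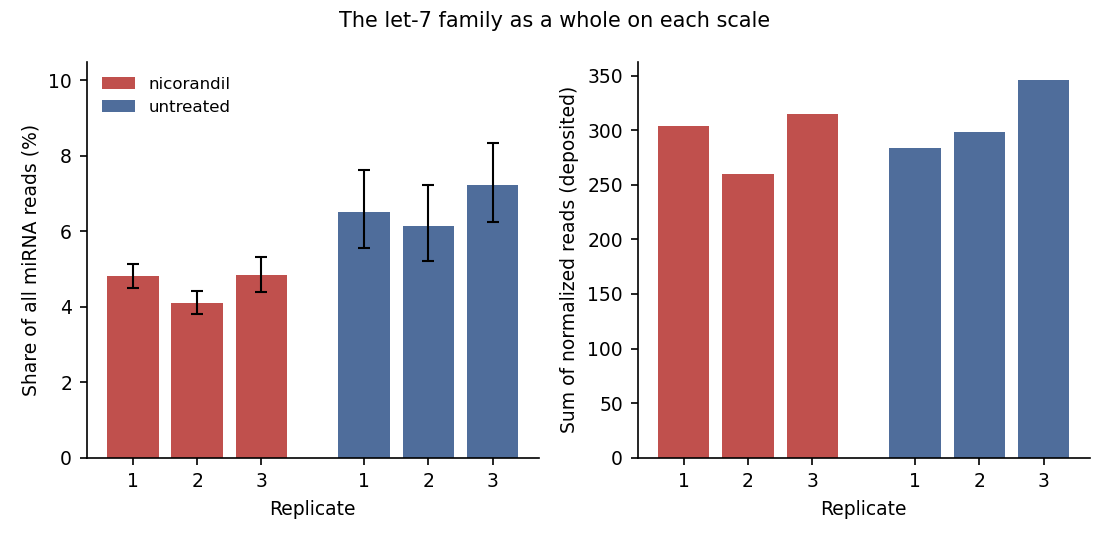
Sum of the 9 let-7 members per library, as a share of all miRNA reads (%, left) and in normalized reads as deposited (right), 1 bar per library with nicorandil left of untreated, and with 95% Wilson intervals on the left. On the left the nicorandil libraries are at 4.11% to 4.84% and the untreated libraries at 6.15% to 7.23%, and on the right the groups overlap.

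Each of the 9 members had a lower mean share of all miRNA reads in nicorandil exosomes, as did 62.8% of all tested miRNAs (76 of 121). For let-7e (0.0380% with nicorandil and 0.0444% without) and miR-98 (1 read in each group) that direction rests on a handful of reads. The groups did not overlap for let-7b, let-7f and let-7i, that is 3 of the 9, while among the 121 tested miRNAs 21.5% were lower without overlap on that measure. let-7i took 0.718% ± 0.0613 of all reads with nicorandil and 1.03% ± 0.0876 without, and let-7b took 0.586% ± 0.0730 with nicorandil and 0.754% ± 0.0950 without (SD, n = 3 each).

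The liver and gut, blood cell, epithelial and endothelial lists took lower shares with nicorandil, without overlap between the groups, as did the family. Among the 121 tested miRNAs, 62.8% had a lower mean share with nicorandil, and 21.5% were lower without overlap. The liver and gut list, with reads for 3 of 3 miRNAs, took 0.463% to 0.617% of all reads in nicorandil libraries and 1.44% to 2.61% in untreated libraries. In normalized reads 3 of its 3 tested miRNAs were called lower, against 7.44% of all tested miRNAs. These were miR-122-5p (log2 difference -1.49, limma adjusted p = 0.000718), miR-192-5p (-1.11, limma adjusted p = 0.0252) and miR-194-5p (-2.30, limma adjusted p = 0.0188). The blood cell list, with reads for 6 of 7, took 0.263% to 0.415% with nicorandil and 0.678% to 0.854% without. In normalized reads its tested members differed. miR-486 was called lower (log2 difference -1.20, limma adjusted p = 0.0238), as were 7.44% of all tested miRNAs. miR-451-5p stood at -0.27 (limma adjusted p = 0.835) and miR-142-5p at 0.36 (limma adjusted p = 0.860). The epithelial list, with reads for 5 of 5, took 0.0119% to 0.0301% with nicorandil and 0.181% to 0.385% without. Of its 2 tested miRNAs, miR-200b-3p was called lower (log2 difference -2.41, limma adjusted p = 0.0086), on 4 nicorandil and 11 untreated reads. miR-200a-3p was not called (-1.49, limma adjusted p = 0.203). The endothelial list, with reads for 1 of 2, took 0.0301% to 0.0356% with nicorandil and 0.181% to 0.360% without. Its miR-126a-3p was called lower (-2.21, limma adjusted p = 0.00316). The neuronal miR-124-3p and miR-9a-5p had 0 reads in all 6 libraries. Of 4 muscle miRNAs only miR-133a-3p had reads, with 2 in nicorandil and 0 in untreated libraries, too few to compare the groups. The part of these markers, of the unequal depth and of the scaling in the let-7 results was not tested.

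The other strands of the let-7 hairpins were rare, apart from let-7d. Of the 12 mature 3p strands listed for these hairpins, 7 had a read and 3 were tested. Of these 0 were called, against 7.44% lower and 14.0% higher among all tested miRNAs. The tested names were let-7d-3p, let-7a-1-3p and let-7c-2-3p, the latter pair holding the same reads. let-7d was the exception among the members in that its 3p strand outnumbered its 5p strand in every library but untreated replicate 3. let-7d-3p was counted 43, 51 and 24 times in nicorandil libraries, against 6, 10 and 2 times in untreated libraries. Its log2 difference was 0.65 (standard error 0.38; limma adjusted p = 0.294). The 3p strand made up 67.2%, 86.4% and 88.9% of the let-7d reads in nicorandil libraries, against 66.7%, 83.3% and 40.0% in untreated libraries. These ranges overlapped, and the 2 reads behind untreated replicate 3 leave its share poorly determined.

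let-7a-1-3p and let-7c-2-3p have the same mature sequence in RefSeq, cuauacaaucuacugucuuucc, and the same counts in every library, with 0, 4 and 10 reads in nicorandil libraries and 0 in each untreated library. The same reads therefore stand under both names. Of the other 3p strands, let-7b-3p, let-7e-3p, let-7f-1-3p and let-7i-3p had at most 3 reads in any library. Rat miRNAs miR-3596a to miR-3596d lie on the opposite strand of let-7a-2, let-7d, let-7e and let-7f-1, and all 4 had 0 reads in all 6 libraries.

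Most of the miRNAs that share precursor clusters with let-7 were higher with nicorandil on the deposited scale. Of miR-100-5p, miR-99a-5p, miR-99b-5p, miR-125a-5p and miR-125b-5p, 4 of 5 rose, against 14.0% of all tested miRNAs, and 0 of 5 fell. The log2 change was 0.88 for miR-99a-5p (limma adjusted p = 0.00045), 0.95 for miR-99b-5p (0.00284), 1.02 for miR-100-5p (0.0149) and 1.27 for miR-125a-5p (0.000309). miR-125b-5p stood at 0.74 (limma adjusted p = 0.102). With library totals all 5 differences were still above 0, but only miR-125a-5p passed the threshold, at 0.82 (limma adjusted p = 0.0191). On the deposited scale their median of 0.95 compares with 0.05 for the 8 tested let-7 members and 0.23 for all 121 tested miRNAs.

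Reads of let-7c were also set against those of miR-99a, its neighbour on chromosome 11. There were 53.7, 60.7 and 71.1 let-7c reads per 100 miR-99a-5p reads in nicorandil libraries, against 84.4, 97.6 and 125 in untreated libraries. The groups did not overlap (unadjusted two-sided exact permutation p = 0.1, at the limit of the design, as 1 of 4 such ratios), and let-7c reads from its chromosome 7 locus are included. let-7a had 124, 114 and 154 reads per 100 miR-100-5p reads in nicorandil libraries, against 133, 156 and 600 in untreated libraries, and these ranges overlapped. The untreated ratios rest on 12, 9 and 5 miR-100-5p reads. let-7e had 3.47, 2.78 and 4.35 reads per 100 miR-99b-5p reads in nicorandil libraries, against 0, 12.5 and 6.25 in untreated libraries, resting on at most 2 let-7e reads in any untreated library.

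Among the 49 other miRNAs with a mean of at least 10 normalized reads, 3 had shares of all reads most like those of the let-7 family by Pearson correlation over the 6 libraries. miR-10a-5p, encoded in a Hox gene cluster, had r = 0.952, miR-760-3p had 0.932 and miR-24-3p had 0.915. The 6 points fall into the 2 groups and share library depth, so r mainly records that a share was lower in nicorandil libraries. miR-10a-5p took 0.0361%, 0.0613% and 0.0475% of all reads in nicorandil libraries, against 0.629%, 0.588% and 1.20% in untreated libraries, and fell by 3.24 on the log2 scale (limma adjusted p = 1.7e-05). miR-760-3p and miR-24-3p, by contrast, stood at -0.14 and 0.03 in log2 normalized reads (limma adjusted p = 0.860 and 0.897).

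Libraries of 1 group were compared by the make-up of their let-7 reads with a chi-square test, which sets their differences against counting error alone and treats PCR copies as independent reads. Nicorandil replicate 1 differed from nicorandil replicate 2 (chi-square test, p = 0.000101) and from nicorandil replicate 3 (p = 0.00123), while replicates 2 and 3 gave p = 0.989 at their depth. Over all miRNAs it was replicate 3 that stood further from the others, with a chi-square p of 5.2e-13 for nicorandil replicates 1 and 2, 1.8e-55 for 1 and 3, and 6.5e-58 for 2 and 3. The same chi-square test gave 0.772, 0.272 and 0.147 for untreated replicates 1 and 2, 1 and 3, and 2 and 3. Over all miRNAs untreated replicates 1 and 2 differed by about as much as sampling noise alone gives (chi-square 50.3 on 54 degrees of freedom, p = 0.617). The chi-square p was 0.174 for replicates 1 and 3 and 0.0121 for replicates 2 and 3. At 2212 to 2338 reads each, 1 library deposited as 2 and separate samples of like make-up cannot be told apart. With untreated replicates 1 and 2 averaged and counted as 1 sample, let-7f was again lower in nicorandil exosomes, by a log2 difference of -1.06 (limma adjusted p = 0.0303).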

How the data were processed

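Small RNA from exosomes was ligated to adapters, amplified and sequenced single-end, per the labels' protocols. FastQC, Bowtie and edgeR were used, per the submitters' processing notes, with no version. Neither the genome build nor the miRNA annotation is given in the sources used here. The deposited values are a normalized signal with the form of edgeR pseudo-counts, which the authors' processing maps to 1 common library size with a dispersion of 0.0272. Inverting that adjustment gave whole numbers of reads for 100% of the 966 values above 0, at a relative tolerance of 1e-05. Some of these values stand for 0 reads, as for let-7e in untreated replicate 1. The recovered reads are the basis of all shares and ratios. The deposited table also holds the authors' log2 fold changes and unadjusted p-values, per the file headers.

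The design planned edgeR's quasi-likelihood test for raw counts and limma for normalized values. The table held normalized values, so limma 3.58.1 with a trend (R 4.3.3) was fitted to log2(value + 1), with a minimum mean of 1 that kept 121 miRNAs, with p-values adjusted over all of them. The scale understates differences of rare miRNAs. Shares and log ratios were compared over libraries by a two-sided exact permutation test. The alternatives were other scalings, filters and pseudocounts, edgeR 4.0.16, DESeq2 1.42.0, limma-voom, a replicate block, and fits without each library. The averaging of untreated replicates 1 and 2 was chosen after the data were seen. The let-7 members, the 3p strands, the cluster partners and the marker lists were chosen with earlier results of these data known. The miRNAs named were those of these lists and the 3 most correlated with the family share. Sequences and loci came from RefSeq tables of GRCr8, in which all 9 members matched by name. Wilson intervals cover counting error only, while the 95% intervals of log2 differences rest on the spread between libraries.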

Additional observations from a re-analysis of the deposited data

How the results depend on the processing

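let-7f stayed lower in all 20 alternative fits, with log2 changes of -1.53 to -0.84 and adjusted p-values of 0.000173 to 0.108, and 17 of the 20 called it. The exceptions were limma without the trend (-1.10, adjusted p = 0.108, with 0 let-7 members called) and limma without nicorandil replicate 2 or 3. edgeR's quasi-likelihood test on the recovered reads gave let-7f-5p -1.27 (adjusted p = 0.00205). Leaving out each library in turn gave -1.43 to -0.84 for let-7f, 0 to 1 members called, 6 to 13 miRNAs higher and 5 to 8 lower. The lowest counts were 6 higher and 5 lower without nicorandil replicate 2, with 5 lower also without untreated replicate 2. Against 17 higher, there were 9 with limma-voom, 7 with edgeR's quasi-likelihood test, 6 with median-of-ratios and with upper-quartile scaling, 5 with DESeq2 and 4 with library totals and without the trend. Against 9 lower, there were 5 without the trend and with a minimum mean of 10. The cause of these moves was not tested. With 1 library left out, the difference of the family share (nicorandil minus untreated) was -2.29 to -1.75 points and that of let-7f's share of the family -12.8 to -8.47 points.

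Other members changed sign without passing the threshold. By median of ratios let-7b stood at -0.13, let-7c at -0.064 and let-7g at -0.17, and let-7g at -0.026 by upper quartile. By library totals let-7a stood at -0.19, let-7b at -0.35, let-7c at -0.29 and let-7g at -0.39. edgeR's quasi-likelihood test gave let-7a -0.050, let-7b -0.17, let-7c -0.088 and let-7g -0.24. DESeq2 gave let-7a -0.048, let-7b -0.15, let-7c -0.066, let-7e -0.035 and let-7g -0.24. With untreated replicates 1 and 2 averaged, let-7g stood at -0.088 and the log2 ratio of let-7i to the rest of the family at 0.030, and that ratio was 0.0047 from shares of the deposited values. With let-7f out of the denominator, the share differences were -0.249 points for let-7b, -0.480 for let-7g and -2.26 for let-7i, and with 1 read added the log2 ratio of let-7e was -0.32. With 1 library left out, log2 differences ranged from -0.034 to 0.17 for let-7b, -0.25 to 0.69 for let-7e and -0.19 to 0.22 for let-7g. Share differences ranged from -0.808 to 0.139 points for let-7d, -0.214 to 0.522 for let-7e, -0.824 to 1.56 for let-7g, -0.661 to 0.859 for let-7i and -0.214 to 0.0817 for miR-98. log2 ratios ranged from -0.53 to 0.69 for let-7e, -0.17 to 0.27 for let-7g and -0.089 to 0.076 for let-7i.

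A pairing of the libraries by replicate number was not seen. Deviations of same-numbered libraries correlated at 0.00883, 0.0437 and -0.0300, and 1 of 6 libraries correlated best with its own number. At the depth of the untreated libraries counting error could hide a pairing, so these correlations cannot exclude one. A fit with the replicate number as a block called 17 miRNAs higher and 9 lower, with let-7f at an adjusted p of 0.00346. Depth limits let-7d, let-7e and miR-98, with at most 3 reads in any untreated library.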
